A study of Mus musculus with 2 samples.

Results

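MHC class I molecules display peptides made inside the cell, and this report describes 10 genes of that system among the 31053 genes counted in single cells sorted from mouse tumors. The 10 were chosen by name, by their known roles, with earlier results of these data known. They comprise the heavy chains H2-K1, H2-D1, H2-Q7, H2-Q10 and H2-T23, the light chain B2m, the peptide transporter genes Tap1 and Tap2, and the inducible proteasome subunit genes Psmb8 and Psmb9. All 10 were found in both libraries. The tumors were LLC (Lewis lung carcinoma, a C57BL/6-derived line) grown under the skin of C57BL/6 mice aged 8 to 12 weeks. Smad3-WT hosts carried both copies of Smad3, which encodes a transducer of TGF-β signals, and Smad3-KO hosts (Smad3-/-) carried a germline deletion, so all host cells of those mice lacked functional Smad3, while the same LLC line was inoculated in both. CD11b+Ly6G+ tumor-associated neutrophils (TANs) were sorted from the pooled tumors of several mice of each genotype and made into 1 droplet library a genotype with a 10x 5′ kit. With 1 library in each group there is no replicate error, so no test was made, and every interval below is an exact 95% interval that covers counting error only. Smad3 itself was counted at 14.6 CPM (178 UMIs) in the cells of the library labelled Smad3-WT and 77.4 CPM (321 UMIs) in those of the library labelled Smad3-KO, where CPM is UMIs scaled to a total of 1000000. The direction of Smad3 goes against the labels, but 5′ reads come from the start of the gene and the deletion lies toward its 3′ end, so these counts check nothing about the genotype, and the groups are named below as their libraries are labelled.

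A class I molecule is a heavy chain paired with beta-2 microglobulin, and it carries a short peptide to the cell surface, where CD8 T cells and NK cells inspect it. The peptides are cut by the proteasome, which interferon can refit with inducible subunits, and the TAP transporter moves them into the endoplasmic reticulum for loading. H2-K1 and H2-D1 are the classical heavy chains of the C57BL/6 mouse, H2-Q7, H2-Q10 and H2-T23 are nonclassical ones, and H2-T23 encodes Qa-1, a ligand of NKG2 receptors on NK and T cells. Tumor cells with little class I are poorly seen by CD8 T cells.

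The start sites of the genes are shown because these genes differed in how they moved between libraries in neutrophil-like cells, described below. There H2-Q10 went against H2-K1, H2-D1 and H2-Q7. H2-T23, whose bases are not printed, did so too. Whether the letters bear on these differences was not tested. Of the 10 genes, 9 lie on chromosome 17 within 2.04 Mb, and B2m lies on chromosome 2. RefSeq start sites (GRCm38.p6) were matched for 9 genes, Tap2 having none in the table used. The 200 bases before the start are given 5′ to 3′ on the gene's strand, H2-K1 from chr17:34000348-34000547 (minus strand), H2-D1 from chr17:35262894-35263093, H2-Q7 from chr17:35438955-35439154, H2-Q10 from chr17:35469889-35470088 and B2m from chr2:122147487-122147686 (all plus strand). Tap1 and Psmb9 run in opposite directions from 1 stretch of 225 bases, chr17:34187331-34187555, printed on the strand of Tap1. Capitals mark matches, on either strand, to the letters GGGGATTCC (a kappa B site), TTTCACTTC (an interferon response site) and GAAANNGAAA (paired interferon-response letters), to TGACG, the core letters of a cyclic-AMP response site, and to the CCAAT box. The printed matches do not overlap each other.
H2-K1: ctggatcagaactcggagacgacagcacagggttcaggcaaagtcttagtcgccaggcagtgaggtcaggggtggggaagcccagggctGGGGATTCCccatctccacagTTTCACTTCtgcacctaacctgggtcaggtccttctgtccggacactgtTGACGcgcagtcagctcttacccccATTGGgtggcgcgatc
H2-D1: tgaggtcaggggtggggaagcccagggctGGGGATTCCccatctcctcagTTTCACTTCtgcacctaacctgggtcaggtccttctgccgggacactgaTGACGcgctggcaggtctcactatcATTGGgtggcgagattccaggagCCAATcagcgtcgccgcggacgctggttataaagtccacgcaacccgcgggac
H2-Q7: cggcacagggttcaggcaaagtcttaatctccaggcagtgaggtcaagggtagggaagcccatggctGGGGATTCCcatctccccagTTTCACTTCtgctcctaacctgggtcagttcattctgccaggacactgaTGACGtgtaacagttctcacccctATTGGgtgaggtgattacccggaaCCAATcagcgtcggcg
H2-Q10: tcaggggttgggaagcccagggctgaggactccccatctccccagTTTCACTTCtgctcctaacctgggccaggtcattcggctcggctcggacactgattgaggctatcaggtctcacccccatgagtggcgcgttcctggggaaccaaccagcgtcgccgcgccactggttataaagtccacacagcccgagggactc
B2m: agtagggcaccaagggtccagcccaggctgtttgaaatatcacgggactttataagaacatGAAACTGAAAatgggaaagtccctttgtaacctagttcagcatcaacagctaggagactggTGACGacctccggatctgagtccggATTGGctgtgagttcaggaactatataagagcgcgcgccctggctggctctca
Tap1 and Psmb9: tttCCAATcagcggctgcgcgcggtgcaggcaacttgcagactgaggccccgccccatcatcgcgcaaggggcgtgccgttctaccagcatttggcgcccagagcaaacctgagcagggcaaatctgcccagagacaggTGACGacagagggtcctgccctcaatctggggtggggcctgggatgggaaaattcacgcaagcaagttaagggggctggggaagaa

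H2-K1, H2-D1 and H2-Q7 each held GGGGATTCC followed by TTTCACTTC and then TGACG. In H2-K1 these began 111, 90 and 41 bases before the start, in H2-D1 171, 150 and 101, and in H2-Q7 133, 113 and 64. H2-K1 has 2 RefSeq starts, of which 1 is printed, and before the other the same letters began at 125, 104 and 55 bases. H2-Q10 held TTTCACTTC 155 bases before its start and none of the other letters. GGGGATTCC occurred in 51 (0.155%) and TTTCACTTC in 101 (0.307%) of 32851 windows of the same length before RefSeq starts, whereas TGACG (15.7%) and CCAAT (29.3%) were frequent. The paired letters GAAANNGAAA (2.27% of windows) were present in B2m, 139 bases before the start, and in H2-T23. Psmb9, B2m, Tap1 and Psmb8 held neither GGGGATTCC nor TTTCACTTC. They too were higher in Smad3-KO neutrophil-like cells (2.21-fold, 1.94-fold, 1.86-fold and 1.36-fold). The window of Psmb8, not printed, held no match to any of the letters. A match is a description of the letters, and no binding was measured here.

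The Smad3-WT library held 4116 barcodes and 23951400 UMIs (unique molecular identifiers, each a counted RNA molecule), and the Smad3-KO library 2514 barcodes and 4214290 UMIs. After filtering, 3520 and 2433 cells remained, with a median of 1318.5 and 1199 UMIs, and the upper limit of 20000 UMIs removed 382 barcodes from Smad3-WT and 0 from Smad3-KO. The libraries shared 73 barcode sequences. Cells were grouped into classes by marker genes, with the 10 genes and others of the pathway, 74 in all, kept out of the clustering. Neutrophil-like cells, with S100a8 at 34912 and 38811 CPM, made up 51.7% (1821 cells) and 44.8% (1090 cells) of the kept cells. Ly6g, the sort antigen, was counted at 20.7 CPM (33 UMIs) in Smad3-WT and 182 CPM (244 UMIs) in Smad3-KO neutrophil-like cells. The sorted cells were thus a mixture, which also held 931 and 87 macrophage or monocyte-like, 253 and 135 dendritic-like, 61 and 463 T or NK-like, 3 and 564 B cell-like, 402 and 25 carcinoma-like and 44 and 61 fibroblast-like cells, and doublets were not removed. The host classes were named from markers only, and different clusters held most neutrophil-like cells of each library. Most Smad3-WT ones lay in cluster 1 (1381, beside 136 from Smad3-KO), and most Smad3-KO ones in cluster 2 (825, beside 9 from Smad3-WT).

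The sum of the 10 genes took 5041 CPM (61375 UMIs) of the kept Smad3-WT cells and 8753 CPM (36298 UMIs) of the kept Smad3-KO cells. In Smad3-WT the summed level was lowest in carcinoma-like cells, at 3250 CPM (3200 to 3300), followed by fibroblast-like cells at 5399 CPM, neutrophil-like cells at 5653 CPM (5537 to 5771), macrophage or monocyte-like cells at 6156 CPM, dendritic-like cells at 7281 CPM and T or NK-like cells at 7835 CPM. These intervals did not overlap between dendritic-like cells and the lower classes, whereas those of fibroblast-like and neutrophil-like cells did. In Smad3-KO the order ran from B cell-like cells at 6420 CPM through fibroblast-like cells at 7054 CPM, neutrophil-like cells at 8836 CPM and T or NK-like cells at 9250 CPM to macrophage or monocyte-like cells at 11551 CPM and dendritic-like cells at 12293 CPM. The 25 Smad3-KO carcinoma-like cells, with a median of 624 UMIs, gave 75 UMIs of the 10 genes in all and are left out of the comparisons.

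**Figure D1:**
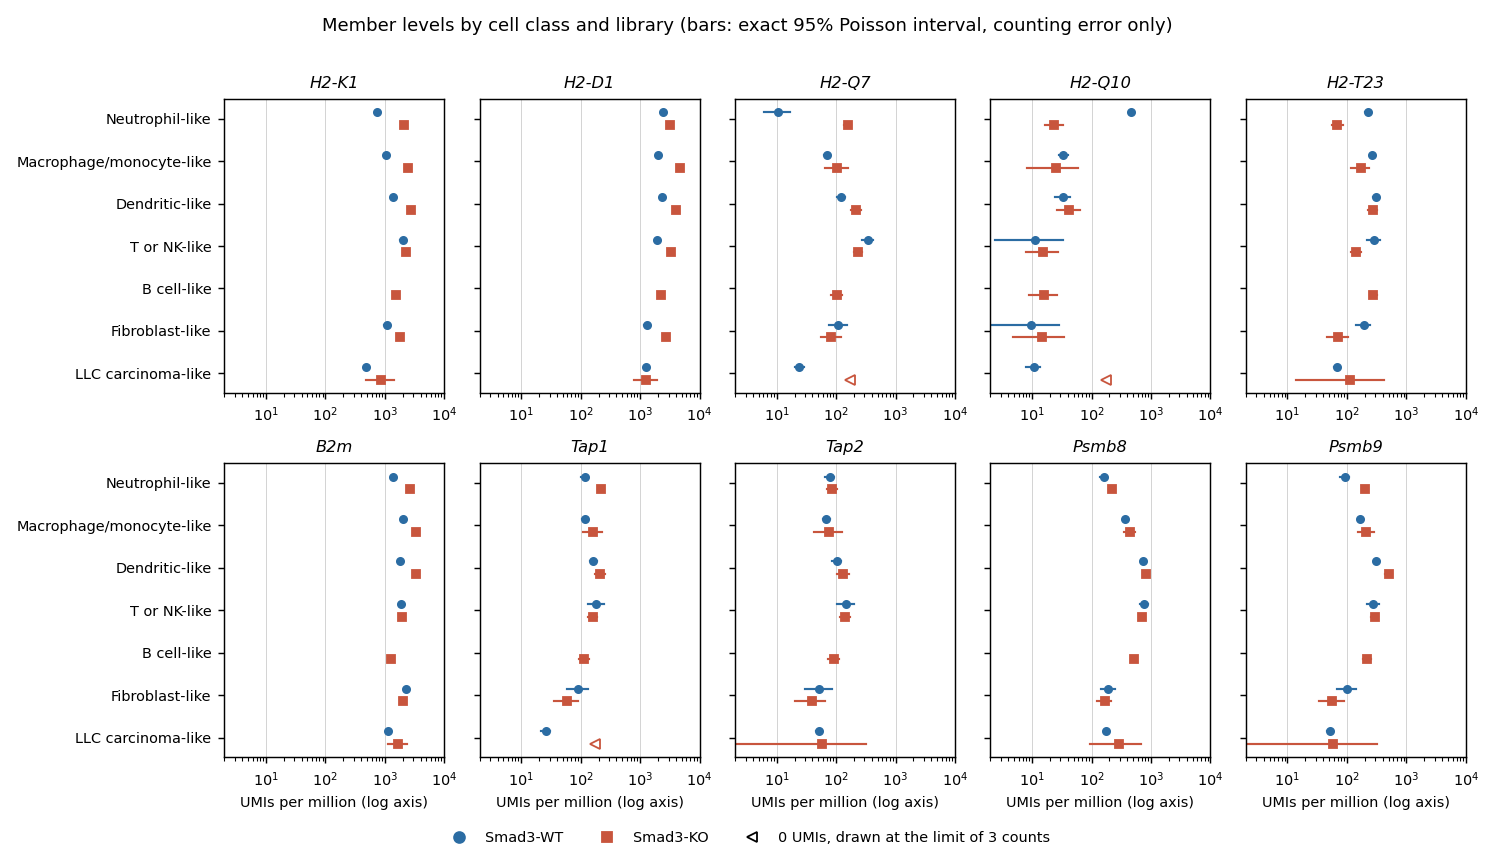
Level of each of the 10 genes in each cell class of each library, in CPM. The libraries stand side by side for each class, and in Smad3-WT 9 of the 10 genes other than H2-Q7 have no class below the carcinoma-like cells whose interval lies apart from theirs.

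CPM is a share of the RNA counted in the cells and does not show the amount per cell. The sum of the 10 genes was 40.4 UMIs a cell in the Smad3-WT carcinoma-like class, whose median depth was 13206 UMIs, and 4.95 in the neutrophil-like class, whose median depth was 740. Less RNA in a cell and less efficient capture cannot be told apart here. Within classes, the median cell of Smad3-WT had 4886 CPM of the 10 genes summed among neutrophil-like cells, 5512 CPM among macrophage or monocyte-like cells and 2975 CPM among carcinoma-like cells.

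Host cells gave a larger share of their UMIs to these genes than the carcinoma-like cells beside them. In Smad3-WT the 3113 host cells gave 6285 CPM and the 402 carcinoma-like cells 3250 CPM, a ratio of 1.93 (1.90 to 1.97). Of the 10 genes 7 were at least 2-fold higher in host cells, against 25.8% of all genes tested (those with at least 20 UMIs over both groups), and 0 were 2-fold lower, against 26.1%. The median ratio of the 10 genes was 2.77, and that of all 11653 genes tested was 0.932. As a mean over cells of each cell's CPM, 4 of the 10 genes were past 2-fold, and without mitochondrial and ribosomal genes in the total the ratio of the sums was 1.41.

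The heavy chains were uneven. H2-K1 stood at 1091 CPM in host cells and 491 CPM (472 to 511) in carcinoma-like cells, a ratio of 2.22 (2.12 to 2.33), and H2-D1 at 2110 and 1241 CPM, a ratio of 1.70 (1.65 to 1.75). H2-T23 was 3.84-fold and H2-Q7 3.25-fold higher in host cells. H2-Q10 encodes a heavy chain best known as a secreted product of the liver. It gave a ratio of 11.9, which ran from 8.68 to 168 over the alternatives. Its carcinoma level lay within the range of the neutrophil markers given below, and its host level came mainly from neutrophil-like cells. B2m, the shared light chain, differed less, with a ratio of 1.65.

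The processing genes were ordered differently. Tap1, which encodes one chain of the peptide transporter, was 4.92-fold higher in host cells, whereas Tap2, which encodes the other chain, was 1.52-fold higher. Psmb9 and Psmb8, the inducible subunits, were 3.42-fold and 2.30-fold higher. By class, Psmb8 stood at 172 CPM in carcinoma-like and 161 CPM in neutrophil-like cells, which did not differ beyond counting error (ratio 0.933, 0.809 to 1.07), but at 365 CPM in macrophage or monocyte-like, 735 CPM in dendritic-like and 768 CPM in T or NK-like cells.

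**Figure D2:**
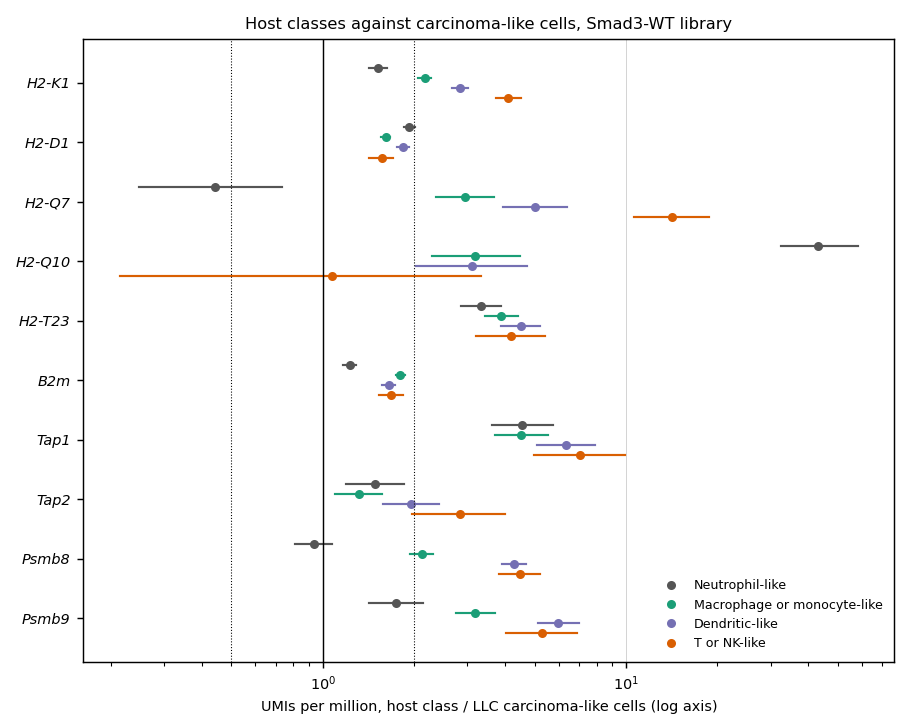
Ratio of CPM in each host class to carcinoma-like cells of the Smad3-WT library, on a log axis, with exact 95% intervals for each of the 10 genes. H2-Q10 in neutrophil-like cells lies at 43.1, H2-Q7 in neutrophil-like cells at 0.441, and Tap1 and H2-T23 lie above the 2-fold line in all 4 host classes.

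Each host class was then set against the carcinoma-like cells. Neutrophil-like cells had 1.74-fold (1.70 to 1.78) the summed level. In them 3 of the 10 genes were at least 2-fold higher (19.4% of all genes) and 1 was 2-fold lower (54.3% of all genes, whose median ratio was 0.429). The 3 were H2-Q10 (43.1-fold, 32.6 to 58.1), Tap1 (4.55-fold) and H2-T23 (3.33-fold), and the 1 was H2-Q7, at 10.7 CPM (17 UMIs) against 24.2 CPM (121 UMIs). Macrophage or monocyte-like cells (1.89-fold), dendritic-like cells (2.24-fold) and T or NK-like cells (2.41-fold) each had 7 of the 10 genes at least 2-fold higher, against 22.9%, 19.9% and 20.3% of all genes, and 0 lower, against 26.5%, 24% and 23.9%. In macrophage or monocyte-like and dendritic-like cells 1 of the 7 was H2-Q10 (3.18-fold and 3.10-fold). Its level in both classes lay within the range of the neutrophil markers given below.

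The order of the classes differed from gene to gene in Smad3-WT. H2-K1 was highest in T or NK-like cells (2008 CPM), then dendritic-like (1387), fibroblast-like (1073) and macrophage or monocyte-like cells (1065), the last pair not differing beyond counting error, then neutrophil-like (748) and carcinoma-like cells (491). H2-D1 was highest in neutrophil-like (2397 CPM) and dendritic-like cells (2287), whose intervals overlapped, and lowest in fibroblast-like (1298) and carcinoma-like cells (1241), whose intervals also overlapped. H2-Q7 ran from 342 CPM in T or NK-like cells to 10.7 CPM in neutrophil-like cells, which lay below the carcinoma-like cells. B2m was highest in fibroblast-like cells (2287 CPM), and only there and in carcinoma-like cells (1114 CPM) and neutrophil-like cells (1370 CPM) did its interval lie apart from every neighbour. H2-T23 lay between 190 and 302 CPM in the 5 host classes, with overlapping intervals between neighbours, and at 67.2 CPM in carcinoma-like cells.

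Free RNA in the droplets, and doublets left in, may bear on these levels. The 11 neutrophil markers were found in carcinoma-like cells at a median 0.0200 (0.0103 to 0.0264) of their level in neutrophil-like cells. H2-Q10 was at 0.0232 there, which lies within this range. Whether its counts in carcinoma-like cells were free RNA, doublets or its own transcript was not tested. In macrophage or monocyte-like cells H2-Q10 was at 0.0739 of its neutrophil level, within the range of the markers (0.0673 to 0.113), and in dendritic-like cells at 0.0719 (markers 0.0392 to 0.102). The other 9 genes were at 0.220 to 2.27 of their neutrophil level in carcinoma-like cells, above all 11 markers. The 14 macrophage markers were found in carcinoma-like cells at a median 0.0824 of their macrophage level.

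The wider pathway was counted from lists chosen by function, also with earlier results of these data known. In host against carcinoma-like cells 25.8% of all genes were at least 2-fold higher and 26.1% lower. Other class I heavy chains were at least 2-fold higher in host cells for 4 of 7 tested, H2-Q6 (4.84-fold), H2-T24 (6.91-fold), H2-M3 (2.18-fold) and the lipid-presenting Cd1d1 (2.89-fold). Among peptide loading genes 1 of 6 passed, Tapbpl (2.33-fold), whereas Tapbp, which bridges TAP and the heavy chain, had a ratio of 1.63 and Calr, a chaperone, 1.11. Of the inducible proteasome partners 2 of 3 passed, Psme1 (2.12-fold) and Psme2 (2.11-fold), both parts of the proteasome activator, and of the constitutive subunits 0 of 3, with Psmb5 at 1.25, Psmb6 at 0.741 and Psmb7 at 0.656. No gene of any list was 2-fold lower in the host cells summed. In neutrophil-like cells alone (19.4% of all genes higher, 54.3% lower) the lists were mixed. Lower were 4 of 6 peptide loading genes, 2 of 6 other heavy chains and 2 of 3 constitutive subunits. So were 1 of 3 inducible partners and 1 of 10 regulators. Higher were 2 of 6 other heavy chains, 6 of 10 regulators and 4 of 6 interferon receptors and kinases. All 7 interferon-stimulated genes and 2 of 2 class I receptors were higher too.

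Regulators and interferon genes differed more, beside 25.8% of all genes at least 2-fold higher in host cells. The regulators were higher for 7 of 10, among them Nlrc5, the class I transactivator (2.86-fold), Irf1 (3.10-fold) and Irf8 (10.6-fold). The list of interferon receptors and kinases, which also held Ifng, the interferon-gamma gene itself, was higher for 6 of 7. Ifngr1, the interferon-gamma receptor, was at 6.29-fold. All 7 interferon-stimulated genes were higher, with Isg15 at 7.31-fold. The genes listed as class I receptors, which are genes of T, NK and myeloid cells, were higher for 7 of 7. Cd8a, 1 of them, was also a marker that named T or NK-like cells. That count follows from the classes compared and is not a finding. The median ratio of the constitutive subunits was 0.741 and that of the interferon-stimulated genes 7.54, beside 0.932 over all genes.

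Within 1 host class, cells that expressed interferon genes carried more. A cluster of 104 Smad3-WT neutrophil-like cells led by Ifit3b, Ifit3 and Ifit1 (transcripts induced by interferon) gave 10832 CPM of the 10 genes, and the other 1717 neutrophil-like cells of Smad3-WT gave 5341 CPM, a ratio of 2.03 (1.90 to 2.17). Of 9 genes tested 7 were at least 2-fold higher (7.62% of all genes) and 0 lower (24.8%). Psmb9 was 5.43-fold, Psmb8 5.08-fold, Tap1 4.23-fold and H2-T23 3.02-fold higher, then H2-K1 2.63-fold, Tap2 2.11-fold and B2m 2.05-fold. H2-D1 had a ratio of 1.59 and H2-Q10 of 0.939 (0.662 to 1.30), with 430 and 458 CPM. A cluster of 91 macrophage or monocyte-like cells led by Mx1 and Ifit1bl1 stood 1.62-fold above the other 840 cells, with 4 of 10 genes at least 2-fold higher (5.76% of all genes), H2-T23 (3.05-fold), Psmb9 (2.82-fold), Tap1 (2.62-fold) and Psmb8 (2.18-fold). H2-Q10 was lower there (23% of all genes), on 3 against 120 UMIs. The clusters were found from genes that leave out the 10 and the pathway lists, although both rest on the same cells.

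The library labelled Smad3-KO carried more of the 10 genes in neutrophil-like cells than the library labelled Smad3-WT. Their sum was 8836 CPM (8678 to 8997) in Smad3-KO and 5653 CPM (5537 to 5771) in Smad3-WT, a ratio of 1.56 (1.52 to 1.61). Of the 10 genes 3 were at least 2-fold higher (8.01% of all 6077 genes tested) and 2 were 2-fold lower (17%). The median ratio of all genes was 0.805 and that of the 10 genes 1.61.

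H2-Q7 was counted at 10.7 CPM (17 UMIs) in Smad3-WT and 157 CPM (210 UMIs) in Smad3-KO neutrophil-like cells, 14.7-fold higher (8.95 to 25.7). H2-K1 was counted at 748 CPM (706 to 791) and 2077 CPM (2001 to 2156), 2.78-fold higher (2.60 to 2.98). Psmb9 was counted at 91.6 and 203 CPM, 2.21-fold higher (1.80 to 2.73). These 3 genes are a nonclassical heavy chain, a classical heavy chain and a proteasome subunit, and the intervals of the libraries do not overlap for any of them. B2m (1.94-fold), Tap1 (1.86-fold), Psmb8 (1.36-fold) and H2-D1 (1.30-fold) were higher by less than 2-fold, and Tap2 had a ratio of 1.09 (0.840 to 1.42).

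H2-Q10 and H2-T23 went the other way. H2-Q10 was counted at 457 CPM (728 UMIs) in Smad3-WT and 23.8 CPM (32 UMIs) in Smad3-KO, a ratio of 0.0522 (0.0355 to 0.0744). Smad3-WT neutrophil-like cells were thus far above all other classes in H2-Q10, and Smad3-KO ones were not. H2-T23 was counted at 224 and 69.3 CPM, a ratio of 0.310 (0.244 to 0.390).

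**Figure D3:**
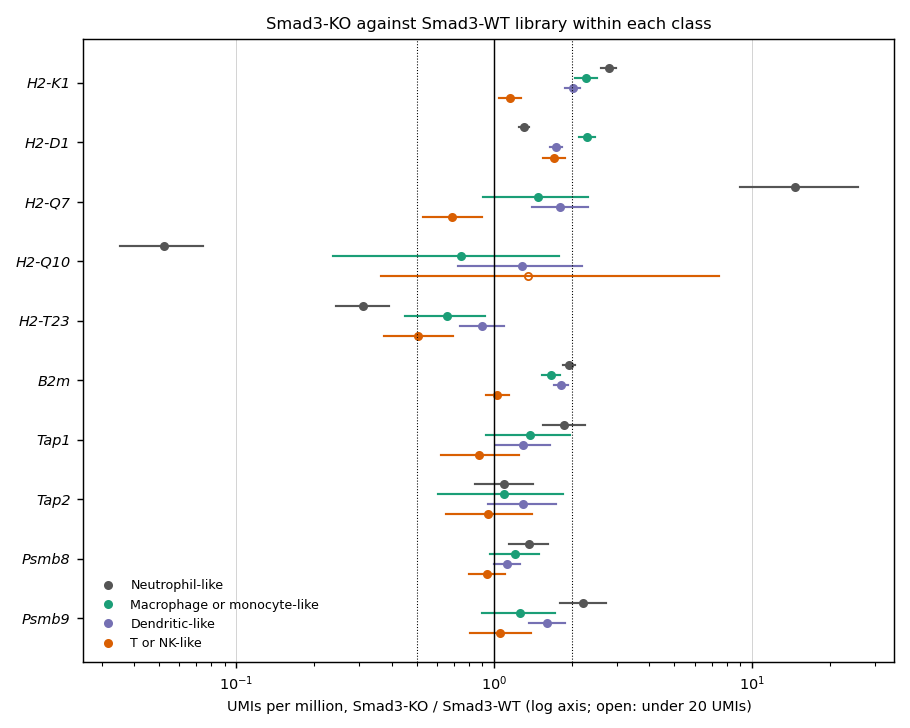
Ratio of CPM in the Smad3-KO to the Smad3-WT library for each of the 10 genes and each cell class, on a log axis, with exact 95% intervals. In neutrophil-like cells H2-Q7 lies at 14.7 and H2-Q10 at 0.0522, and H2-K1 lies above 1 in all 4 classes.

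Depth differed between libraries and classes, and so the share of cells with a UMI was also taken after thinning each cell to 500 UMIs. In neutrophil-like cells any of the 10 genes was found in 85.4% (83.7 to 87.0) of Smad3-WT and 95.5% (94.1 to 96.7) of Smad3-KO cells. For H2-K1 the shares were 28.6% and 58.9% (40.2% and 77.9% unthinned), and for H2-Q7 0.659% and 7.43% (0.934% and 16.1% unthinned). For H2-Q10 they were 18.9% and 1.38% (28.3% and 2.75% unthinned), beside 0.498% in carcinoma-like cells of Smad3-WT, where its level lay within the range of the neutrophil markers. The median depth was 740, 1017.5 and 13206 UMIs.

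The neutrophil-like cells of the libraries mostly lay in different clusters. In cluster 1, which held cells of both, the summed level was 1.39-fold higher in Smad3-KO (1.29 to 1.50), with 0 of 9 genes at least 2-fold higher (8.79% of all genes) and 3 lower (25.6%), H2-Q10 on 641 UMIs against 1, H2-T23 at a ratio of 0.399 and Tap2 at 0.496 (0.132 to 1.31). H2-K1 had a ratio of 1.49 there, below the 2.78 over all neutrophil-like cells. In cluster 6, with 327 Smad3-WT and 49 Smad3-KO cells, the summed level was 2.12-fold higher, with H2-K1 at 3.72-fold, and 4 of 7 genes tested were at least 2-fold higher (14.7%) and 1 lower (22.3%). Among these, the intervals of Tap1 (0.948 to 5.61) and Psmb8 (0.777 to 5.11), both higher, and of the lower H2-Q10 (0.0400 to 1.31) included 1. In cluster 2 the 9 Smad3-WT cells gave 560 CPM of H2-Q10 (5 UMIs) and the 825 Smad3-KO cells 27.1 CPM (28 UMIs).

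Other classes differed in part in the same way. In macrophage or monocyte-like cells the sum was 6156 CPM in Smad3-WT and 11551 CPM in Smad3-KO, 1.88-fold higher (1.80 to 1.96), with H2-K1 (2.27-fold) and H2-D1 (2.30-fold) past 2-fold (13.5% of all genes) and 0 of 10 lower (14.5%). In dendritic-like cells the ratio was 1.69 (1.64 to 1.74), H2-K1 was 2.01-fold higher (12.9%) and 0 genes were lower (10.4%). This class was a different mix of clusters in each library. Cluster 8, led by Mgl2, held 221 Smad3-WT and 69 Smad3-KO cells, cluster 15 held 28 and 43, and cluster 19 held 4 and 23. In cluster 8 H2-K1 stood at 1298 and 1680 CPM, closer together than the 1387 and 2796 CPM of the whole class. In T or NK-like cells the ratio was 1.18 (1.12 to 1.24), with 0 of 9 genes past 2-fold in either direction (12.9% and 12.2%). The T or NK-like clusters also differed between libraries. Cluster 7, led by Lef1 and Dapl1, held 2 Smad3-WT and 368 Smad3-KO cells, and cluster 13, led by Gzma and Nkg7, held 42 and 46. Over all kept cells the ratio was 1.74 (1.71 to 1.76), with H2-K1 and H2-Q7 past 2-fold (16.3%) and H2-Q10 below (15.4%), and these libraries differ in their mix of classes. In host cells alone the ratio was 1.40, with H2-Q7 past 2-fold at 2.01 (16.5%), H2-K1 at 1.91 and H2-Q10 below (8.9%).

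H2-T23 was the gene whose ratio was below 1 in all 4 classes, at 0.310 in neutrophil-like, 0.654 (0.450 to 0.920) in macrophage or monocyte-like, 0.507 (0.374 to 0.689) in T or NK-like and 0.899 (0.735 to 1.09) in dendritic-like cells, the last interval including 1. H2-Q7 was at 121 and 218 CPM in dendritic-like cells and at 342 and 235 CPM in T or NK-like cells. H2-K1 was above 1 in all 4, with 1.16 (1.05 to 1.28) in T or NK-like cells. B2m had a ratio of 1.03 (0.927 to 1.14) in T or NK-like cells, below its 1.67 to 1.94 in the other 3 classes.

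The lists were counted in neutrophil-like cells too, where 8.01% of all genes were at least 2-fold higher in Smad3-KO and 17% lower. Other class I heavy chains were higher for 4 of 6 tested and lower for 2. H2-Q1 had 0 UMIs against 31 in the library labelled Smad3-KO, at least 12.3-fold higher against a floor of 3 UMIs, H2-Q6 was 7.43-fold and H2-Q4 2.69-fold higher, H2-M3 was 2.97-fold higher on 15 against 6 UMIs, and H2-T22 (0.231) and H2-T24 (0.339) were lower. Tapbp was 2.28-fold higher and Pdia3, a loading chaperone, lower at 0.407. The constitutive and inducible proteasome partners had 0 of 3 each past 2-fold. Of the regulators 3 of 7 were higher, Nlrc5 (2.82-fold), Irf1 (2.48-fold) and Stat2 (2.88-fold), of the receptors and kinases 2 of 6, Ifnar1 (2.17-fold) and Ifnar2 (2.35-fold), and of the interferon-stimulated genes 1 of 7, Gbp2 (2.47-fold), with Isg15 at 1.41 and Ifit3 at 0.554. In macrophage or monocyte-like cells 13.5% of all genes were at least 2-fold higher and 14.5% lower. Other heavy chains were higher for 2 of 6 tested, H2-Q6 (4.10-fold) and H2-Q4 (2.16-fold), and lower for 1, H2-T22 (0.276). Of the regulators 1 of 10 was higher, Nlrc5 (3.36-fold). Of the interferon-stimulated genes 1 of 7 was lower, Cxcl10 (0.385), a chemokine, and of the class I receptors 2 of 4 were lower. No gene of the remaining lists was past 2-fold.

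Other genes of the H2 complex, the stretch of chromosome 17 with the class I and class II genes, also differed in both directions. The 24 H2 genes with at least 20 UMIs were looked at after their values were seen. They include H2-K1, H2-D1, H2-Q7, H2-Q10 and H2-T23, so the counts below hold these heavy chains of the 10 genes again. In neutrophil-like cells H2-K1 and H2-Q7 are among the higher and H2-Q10 and H2-T23 among the lower. The higher also hold H2-Q1, H2-Q4, H2-Q6 and H2-M3 and the lower H2-T22 and H2-T24, already counted above as other class I heavy chains. In neutrophil-like cells 18 could be tested, of which 10 were at least 2-fold higher and 6 lower in Smad3-KO (8.01% and 17% of all genes), and in dendritic-like cells 19, of which 5 were higher and 2 lower (12.9% and 10.4%). In macrophage or monocyte-like cells 17 could be tested, with 7 higher and 2 lower (13.5% and 14.5%), and in T or NK-like cells the balance was the other way, with 2 of 18 higher and 7 lower (12.9% and 12.2%). In dendritic-like cells H2-Eb1, a class II chain, was counted at 5628 CPM (7541 UMIs) in Smad3-WT and 176 CPM (88 UMIs) in Smad3-KO, a ratio of 0.0312. H2-Aa (1.49) and H2-Ab1 (0.778), class II chains expressed in the same cells, differed far less. All 3 were among the lower genes in T or NK-like cells. In neutrophil-like cells H2-Aa and H2-Ab1 were among the higher and H2-Eb1 among the lower. H2-Aa was at 7408 CPM in Smad3-WT dendritic-like, 1366 CPM in T or NK-like and 68.4 CPM in neutrophil-like cells. In Smad3-WT T or NK-like cells macrophage markers lay at a median 0.190 of their macrophage level. Whether these class II counts were free RNA was not tested. Over all kept cells H2-M2 had 2 and 162 UMIs, H2-Q2 0 and 47 and H2-T3 0 and 25. In Smad3-KO, 151 of the H2-M2 UMIs lay in dendritic-like cells. T or NK-like cells, 61 in Smad3-WT and 463 in Smad3-KO, held 23 of the H2-T3 UMIs. Reads of both libraries were counted against 1 reference, and whether both groups of mice carry the same alleles of this region was not tested. H2-Q7 shares 19.1% of its 90-base windows with other genes (H2-Q6 foremost), so reads there may be counted for neither or for the wrong gene, whereas H2-Q10 shares 2.92% and H2-K1 0.0900%. Within the first 500 bases of the transcripts, nearer to where 5′ reads lie, the shares were 10.2%, 0% and 0.136%.

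**Figure D4:**
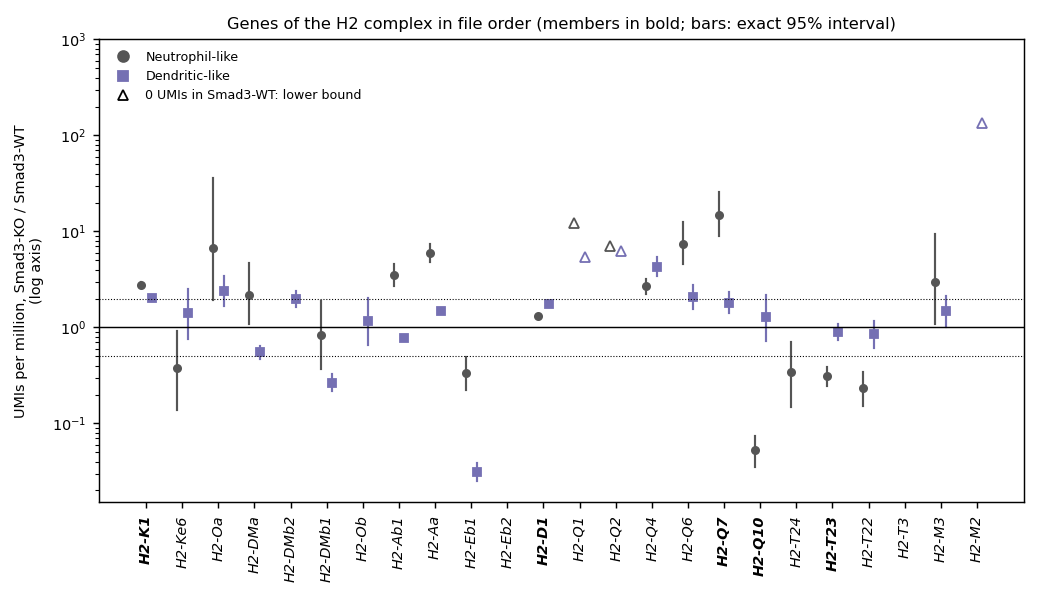
Ratio of CPM in the Smad3-KO to the Smad3-WT library for H2 genes in the order of the annotation file, on a log axis, for neutrophil-like (circles) and dendritic-like cells (squares), with exact 95% intervals and open triangles for lower bounds. H2-Eb1 in dendritic-like cells lies at 0.0312, and H2-Q10 in neutrophil-like cells at 0.0522.

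Averages for 13 clusters are deposited as well, each scaled so that a cluster's genes sum to 1311, and they hold both libraries together. Clusters 2 and 11 carry the carcinoma markers Krt8 and Wfdc2. Cluster 2 is not carcinoma alone, since it is also the highest of the 13 in the fibroblast gene Col1a1 (1.63, the next cluster being at 0.0756) and the 4th in the macrophage gene C1qa (0.223). The sum of the 10 genes was 3.21 and 4.35 in those, and 7.54 to 17.2 (median 8.60) in the other 11. For 8 of the 10 genes every one of the 11 clusters stood above both of these clusters, against 12.3% of all genes. The exceptions were H2-Q7, for which 9 of 11 did, and Psmb8, for which 10 of 11 did. H2-Q10 was highest in clusters 6 (0.837), 10 (0.447) and 1 (0.419), and between 0.0170 and 0.123 in the other 8.

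**Figure D5:**
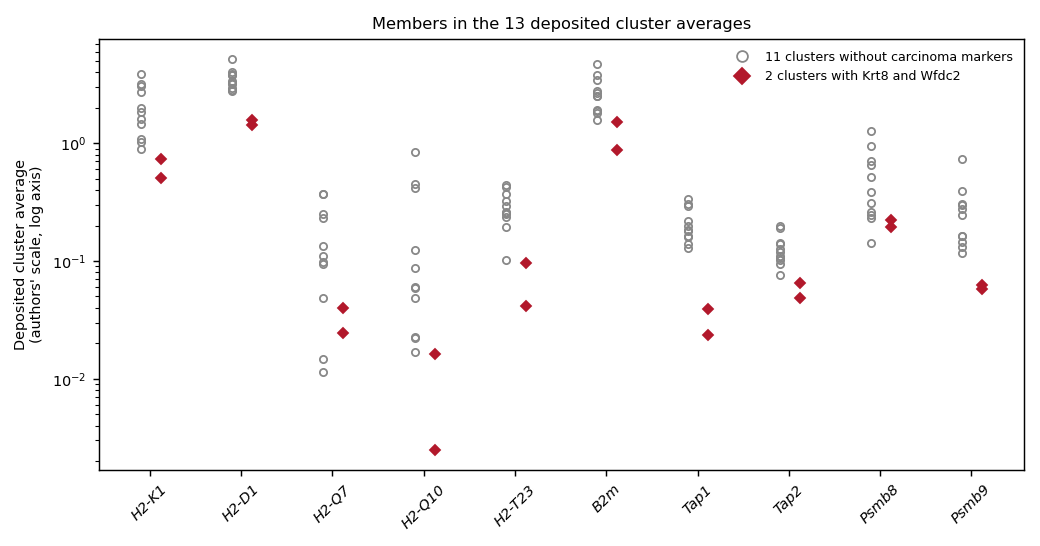
Deposited cluster averages of the 10 genes on a log axis in the authors' scale, for the 11 clusters without carcinoma markers (circles) and the 2 with them (diamonds). For 8 of the 10 genes all circles lie above both diamonds, and the exceptions are H2-Q7 and Psmb8.

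Pairs of genes were compared across the 11 profiles of a class in a library with at least 50 cells. Among the processing genes the Pearson r ran from 0.63 (Tap1 and Psmb8) to 0.90 (Psmb8 and Psmb9). It was 0.75 between Tap1 and Tap2, 0.88 between Tap2 and Psmb9 and 0.86 between Tap1 and Psmb9. Some pairs outside the processing genes lay in the same range, such as H2-D1 and B2m (0.84). H2-K1 and H2-Q7 had an r of 0.85, and H2-Q7 and H2-Q10 of -0.59. Of 7234 genes compared, the 5 most like Psmb9 were Arhgef6 (0.97), Epsti1 (0.95), Pip4k2a (0.94), Dock8 (0.92) and Parvg (0.92). The 5 most like H2-K1 were H2-Q6 (0.93), Nxf1 (0.91), Kat6a (0.91), Akap13 (0.89) and R3hdm4 (0.87). The profiles share libraries and depth, and these values are a description.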

How the data were processed

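Per the labels and the study's methods, the authors counted UMIs with Cell Ranger 3.0.2 against mm10 and deposited whole-number counts per gene and barcode for both libraries in 1 matrix. The 10 genes and the lists were chosen with earlier results of these data known. Barcodes were assigned to libraries by their suffix, after their sums matched the authors' deposited library averages to within 3.58401e-08. Those averages are a signal scaled to 1311 UMIs, the deposited cluster averages are a score on the same scale, and the authors' fold change and p-value columns were not used. Barcodes were kept that had 200 or more genes, a mitochondrial share below 10%, and between 500 and 20000 UMIs. They were clustered with scanpy 1.11.5 and igraph 0.11.9 (2000 variable genes, 100 principal components, 15 neighbours, Louvain resolution 1) and named from at least 3 markers. UMIs were summed over cells and scaled to a total of 1000000 (CPM). Intervals were exact (Poisson, Clopper-Pearson and, for ratios, conditional binomial; scipy 1.17.1). Genes with at least 20 UMIs over both groups were counted as past 2-fold. Named genes were the 10, the pathway lists, and the 5 genes most like H2-K1 and Psmb9. The ratios were checked on simulated counts. The value of 1 listed gene is not reported here. The gene annotation version was not given in the sources used here.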

Additional observations from a re-analysis of the deposited data

Results flagged for a closer look

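H2-Q7 had ratios of Smad3-KO to Smad3-WT that pointed in opposite directions between classes: 14.7 (8.95 to 25.7) in neutrophil-like cells and 1.80 (1.40 to 2.31) in dendritic-like cells, but 0.687 (0.531 to 0.894) in T or NK-like cells. Most T or NK-like cells of each library lay in different clusters, 42 of 61 Smad3-WT cells in cluster 13 and 368 of 463 Smad3-KO cells in cluster 7. With 1 library in each group the difference between classes was not tested.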

How the results depend on the processing

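No paired analysis was possible because each genotype has 1 library. No alternative turned the direction of the ratios among the 6 results that answer a comparison, and the counts among them have no direction. Among single genes, 2 ratios whose intervals included 1 crossed it. Smad3-KO to Smad3-WT, H2-Q10 in macrophage or monocyte-like cells (0.742) ran from 0.622 to 4.85, the highest without possible doublets, and Tap2 in neutrophil-like cells (1.09) from 0.923 to 1.37, the lowest with 30 principal components. For the 6 results, 45 of 66 alternative values stayed the same and 21 moved. A ratio was called the same within its counting interval, and a count within a fixed factor of the main count. The ratio of host to carcinoma cells (1.93) became 2.08 with every barcode, 2.65 without the upper limit on UMIs and with up to 20% mitochondrial UMIs, 2.17 without possible doublets (611 Smad3-WT and 251 Smad3-KO cells left out), 1.76 as a mean over cells, 1.41 without mitochondrial and ribosomal genes, 2.08 with median-of-ratios scaling and 2.07 at equal weight. Genes at least 2-fold higher in host cells numbered 4 in place of 7 as a mean over cells. In neutrophil-like cells the ratio of Smad3-KO to Smad3-WT (1.56) became 1.45 with 30 principal components, 1.96 with median-of-ratios scaling and 1.64 without the clusters led by Ngp, Camp and Ltf. In macrophage or monocyte-like cells (1.88) it became 2.29 with every barcode, 1.59 at resolution 0.1, 2.03 without possible doublets and 1.78 with median-of-ratios scaling. Over all kept cells (1.74) it became 2.28 with every barcode, 2.29 without the upper limit, 1.81 without possible doublets, 1.50 as a mean over cells, 1.66 without mitochondrial and ribosomal genes and 1.77 with median-of-ratios scaling. The causes were not tested. For single genes 250 of 320 values stayed within the error, and H2-Q10 in host against carcinoma cells ran from 8.68 to 168. Leaving out the barcode sequences shared by both libraries, an alternative chosen after seeing the data, kept all 6 results the same by these rules. The main limits are 1 library a genotype, 5′ counts against 1 reference, free RNA, doublets left in, and classes named from markers.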
